A study of Mus musculus with 6 samples.

Results

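The collagen alpha chains form the gene family described here, in dorsal skin of *Bmal1*-/- mice and of their *Bmal1*+/- littermates. Members were the probe sets whose platform gene symbol is that of a collagen alpha chain, which gave 46 probe sets of the 23410 with a gene symbol. They stand for 44 of 19938 genes, since *Col6a5* and *Col6a6* have 2 probe sets each, and all 46 had a mean intensity of 64 or more. Each gene is given by its probe set of highest mean intensity unless another is named. Expression was measured on Affymetrix Mouse Gene 1.0 ST arrays with 1 array per mouse, 3 *Bmal1*-/- and 3 *Bmal1*+/- mice of C57BL/6J background. *Bmal1* (*Arntl*) encodes a transcription factor that drives the circadian clock, and the mutation is carried by the whole animal. All mice were labelled postnatal day 22 with follicles staged as telogen, the resting phase, so the comparison asks how gene expression of resting skin differs without *Bmal1*. *Bmal1*+/- replicate 1 was the only mouse labelled male, and another of its labels gives day 23. The *Bmal1*+/- mice carry 1 mutant allele, and no wild-type skin was compared.

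Collagens are secreted proteins built from alpha chains that wind into a helix. Fibrillar collagens, mainly types I, III and V, give the dermis its strength, with types XII, XIV and XVI bound to the fibril surface and type VI forming beaded filaments around them. Type IV collagen forms the sheet of basement membranes under the epidermis and around vessels, fat and muscle cells, type VII anchors the epidermal sheet to the dermis, and type XVII is a transmembrane chain of basal keratinocytes.

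No collagen chain passed the test in *Bmal1*-/- skin. The fit over all probe sets (limma, adjusted p under 0.05) called 0.231% of the 23410 probe sets, 31 lower (0.132%) and 23 higher (0.0982%) in *Bmal1*-/- skin, and 0 of the 46 collagen probe sets. The chain with the smallest adjusted p was *Col12a1* at 0.204, and the largest log2 fold change was that of *Col5a3* at 0.46. The sign of the small differences was uneven, since 33 of the 44 chains had a lower mean in *Bmal1*-/- skin and 11 a higher one. That is 75% lower, where 44.5% of all 19938 genes were lower. The median log2 fold change of the chains was −0.083, with quartiles of −0.16 and −0.0031, against a median of 0.016 over all genes, with quartiles of −0.059 and 0.10.

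At an unadjusted p under 0.05, 9 chains were lower in *Bmal1*-/- skin, 20.5% of the 44, where 4.51% of all genes were. These were *Col3a1*, *Col5a1*, *Col6a1*, *Col6a3*, *Col8a1*, *Col12a1*, *Col14a1*, *Col16a1* and *Col17a1*. The 3 chains higher at that threshold were *Col4a1*, *Col4a2* and *Col5a3*, 6.82% of the chains beside 4.35% of all genes. The 3 *Bmal1*-/- values lay below all 3 *Bmal1*+/- values for 7 chains, 15.9% of the family and 7.61% of all genes. They lay above for *Col5a3*, *Col4a2* and *Col6a6*, 6.82% of the family and 7.15% of all genes. With 3 mice in each group an exact permutation test of 1 gene cannot go below p = 0.1, so the adjusted p-values of the fit are given throughout. At an unadjusted p under 0.001, the threshold that the study set for Cyber-T, limma called 0 chains, where 0.397% of probe sets were lower and 0.252% higher. A regularised test of the Cyber-T type called 3 chains at that threshold, *Col6a3* and *Col12a1* lower and *Col5a3* higher, where 0.846% of probe sets were lower and 0.491% higher. The standard errors of the log2 fold changes ran between 0.06 and 0.16 with a median of 0.09, and the 95% confidence intervals of 38 of the 44 chains lay wholly within 0.5 of 0 on the log2 scale.

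**Figure D1:**
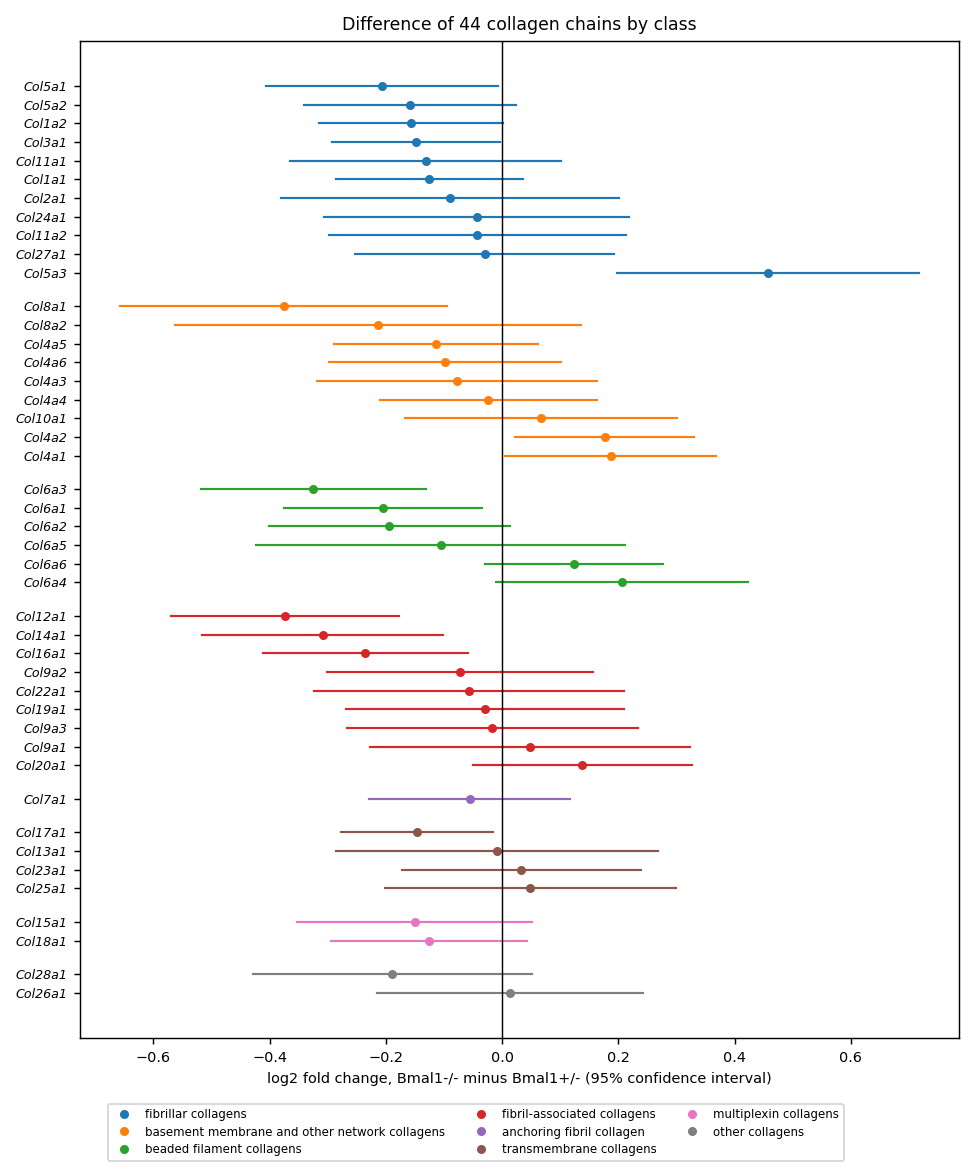
The log2 fold change (*Bmal1*-/- minus *Bmal1*+/-, horizontal axis) of each of the 44 collagen chains, grouped by class and marked in colour, with points for the estimate and lines for the 95% confidence interval. Most points lie left of 0, with 10 of 11 fibrillar chains lower, and *Col5a3* at 0.46 stands at the right.

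RefSeq promoter sequences of the GRCm38.p6 build were matched to 35 of the 44 genes, and the 250 bases before each start were searched on both strands. The windows of 4 chains are shown, chosen for the place of these chains in the values below. *Col1a2* is a main dermal chain, *Col5a1* and *Col5a3* are chains of the same collagen type with opposite differences, and *Col6a3* is the beaded filament chain that 2 alternative fits put past the threshold. They are the windows chr6:4505368-4505617 (plus strand) for *Col1a2*, chr2:27886175-27886424 (plus strand) for *Col5a1*, chr9:20815068-20815317 (minus strand) for *Col5a3* and chr1:90843972-90844221 (minus strand) for *Col6a3*. Capitals mark CCAAT boxes (CCAAT) and GC boxes (GGGCGG), or their reverse complements.
Col1a2: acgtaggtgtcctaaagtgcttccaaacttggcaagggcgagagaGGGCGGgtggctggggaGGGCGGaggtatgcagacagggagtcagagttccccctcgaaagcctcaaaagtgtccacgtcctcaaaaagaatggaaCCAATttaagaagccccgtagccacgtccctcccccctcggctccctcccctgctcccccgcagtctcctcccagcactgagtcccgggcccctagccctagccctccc
Col5a1: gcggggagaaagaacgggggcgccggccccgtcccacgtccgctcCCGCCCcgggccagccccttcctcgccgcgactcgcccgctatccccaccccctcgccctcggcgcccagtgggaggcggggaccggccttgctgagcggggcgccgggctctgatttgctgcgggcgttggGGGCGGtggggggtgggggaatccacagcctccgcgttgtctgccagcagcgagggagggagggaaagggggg
Col5a3: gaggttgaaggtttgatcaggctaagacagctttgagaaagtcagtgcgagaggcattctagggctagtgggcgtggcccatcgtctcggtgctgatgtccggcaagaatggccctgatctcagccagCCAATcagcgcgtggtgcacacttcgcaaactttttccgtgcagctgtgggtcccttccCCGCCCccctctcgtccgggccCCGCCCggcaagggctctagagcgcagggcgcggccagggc
Col6a3: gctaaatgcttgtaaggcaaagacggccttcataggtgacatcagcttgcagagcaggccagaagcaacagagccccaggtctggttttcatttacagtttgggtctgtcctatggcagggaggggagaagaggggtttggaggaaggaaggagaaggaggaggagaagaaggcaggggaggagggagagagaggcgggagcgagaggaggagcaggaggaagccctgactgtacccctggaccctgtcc
The *Col5a3* window holds 1 CCAAT box and 2 GC boxes at 62.8% GC, the *Col5a1* window 2 GC boxes and no CCAAT box at 76.4% GC, the *Col1a2* window 1 CCAAT box and 2 GC boxes at 62.0% GC, and the *Col6a3* window neither at 57.2% GC. The median of all windows was 52.4% GC.

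The canonical E-box CACGTG, the sequence that CLOCK and BMAL1 bind together, was in 0 of the 38 collagen windows and in 6.02% of the 32851 windows of all genes. The variant CACGTT was in 2 collagen windows (5.26%), those of *Col4a4* and *Col6a6*, and in 3.85% of all windows. The D-box TTATGTAA, bound by clock output factors, was in 0 collagen windows and in 0.819% of all windows. TATAAA was in 13.2% of collagen windows and 12.4% of all, CCAAT in 34.2% and 33.8%, and GGGCGG in 57.9% and 32.7%. A match is a description of the letters in these windows only.

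The type I chains, which together form the main fibrils of the dermis, were slightly lower on average in *Bmal1*-/- skin. *Col1a1* had intensities of 15525, 17354 and 15290.1 in *Bmal1*-/- mice, against 18834, 16396 and 17316 in *Bmal1*+/- mice. The groups overlapped, since *Bmal1*-/- replicate 2 lay above *Bmal1*+/- replicates 2 and 3. The log2 fold change was −0.13 ± 0.07 (SE), with a 95% interval of −0.29 to 0.04 and an adjusted p of 0.66. The estimate amounted to −8.32%. *Col1a2* averaged 15813 ± 1199.9 in *Bmal1*-/- skin and 17617 ± 1026 in *Bmal1*+/- skin (SD, n = 3 each), with a log2 fold change of −0.16 at an adjusted p of 0.574. Its *Bmal1*-/- replicate 2 again lay among the *Bmal1*+/- values.

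The type III chain *Col3a1*, which mixes with type I in the fibrils of skin, had 12822, 14389 and 12930.4 in *Bmal1*-/- mice, against 15536, 14146 and 14753 in *Bmal1*+/- mice. *Bmal1*-/- replicate 2 lay above the lowest *Bmal1*+/- value, and the other *Bmal1*-/- mice lay below all 3. The log2 fold change was −0.15 ± 0.06 (SE) at an adjusted p of 0.559. The type V chains, which set the diameter of type I fibrils, did not share a direction. *Col5a1* had 1524, 1844 and 1478 in *Bmal1*-/- mice and 2005, 1781 and 1795 in *Bmal1*+/- mice, a log2 fold change of −0.21 ± 0.09 (SE) at an adjusted p of 0.557. *Col5a2* averaged 2304 ± 171 in *Bmal1*-/- skin and 2577 ± 251 in *Bmal1*+/- skin (SD, n = 3 each), with a log2 fold change of −0.16 (adjusted p = 0.624). In both, *Bmal1*-/- replicate 2 was the mouse that reached into the *Bmal1*+/- values.

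*Col5a3*, the less widely expressed type V chain, had the largest positive difference of the family. It had 844, 1028 and 1013 in *Bmal1*-/- mice, against 718, 795 and 583 in *Bmal1*+/- mice. Every *Bmal1*-/- value lay above every *Bmal1*+/- value, with the closest pair being *Bmal1*-/- replicate 1 and *Bmal1*+/- replicate 2. The means were 962 ± 102 and 698 ± 107 (SD, n = 3 each), 37.4% higher in *Bmal1*-/- skin with a 95% interval of 14.7% to 64.5%, and the log2 fold change was 0.46 ± 0.12 (SE) at an adjusted p of 0.241. It was past the threshold in the regularised test of the Cyber-T type, the kind of test the study used (adjusted p = 0.026), which called 0.756% of all probe sets lower and 0.41% higher in *Bmal1*-/- skin. Within each array, *Col5a3* less the mean of *Col5a1* and *Col5a2* on the log2 scale, as a deviation from its mean over the 6 arrays, was 0.23, 0.27 and 0.47 in *Bmal1*-/- mice, against −0.40, −0.04 and −0.52 in *Bmal1*+/- mice. The groups did not overlap in this difference, which was chosen after the values had been seen and was given no test.

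The remaining fibrillar chains had small differences. *Col11a1* had a log2 fold change of −0.13 (adjusted p = 0.752) and *Col2a1*, the main fibrillar chain of cartilage, one of −0.09 (adjusted p = 0.873). *Col11a2*, *Col24a1* and *Col27a1* lay between −0.04 and −0.03. Over the 11 fibrillar chains the median was −0.13.

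**Figure D2:**
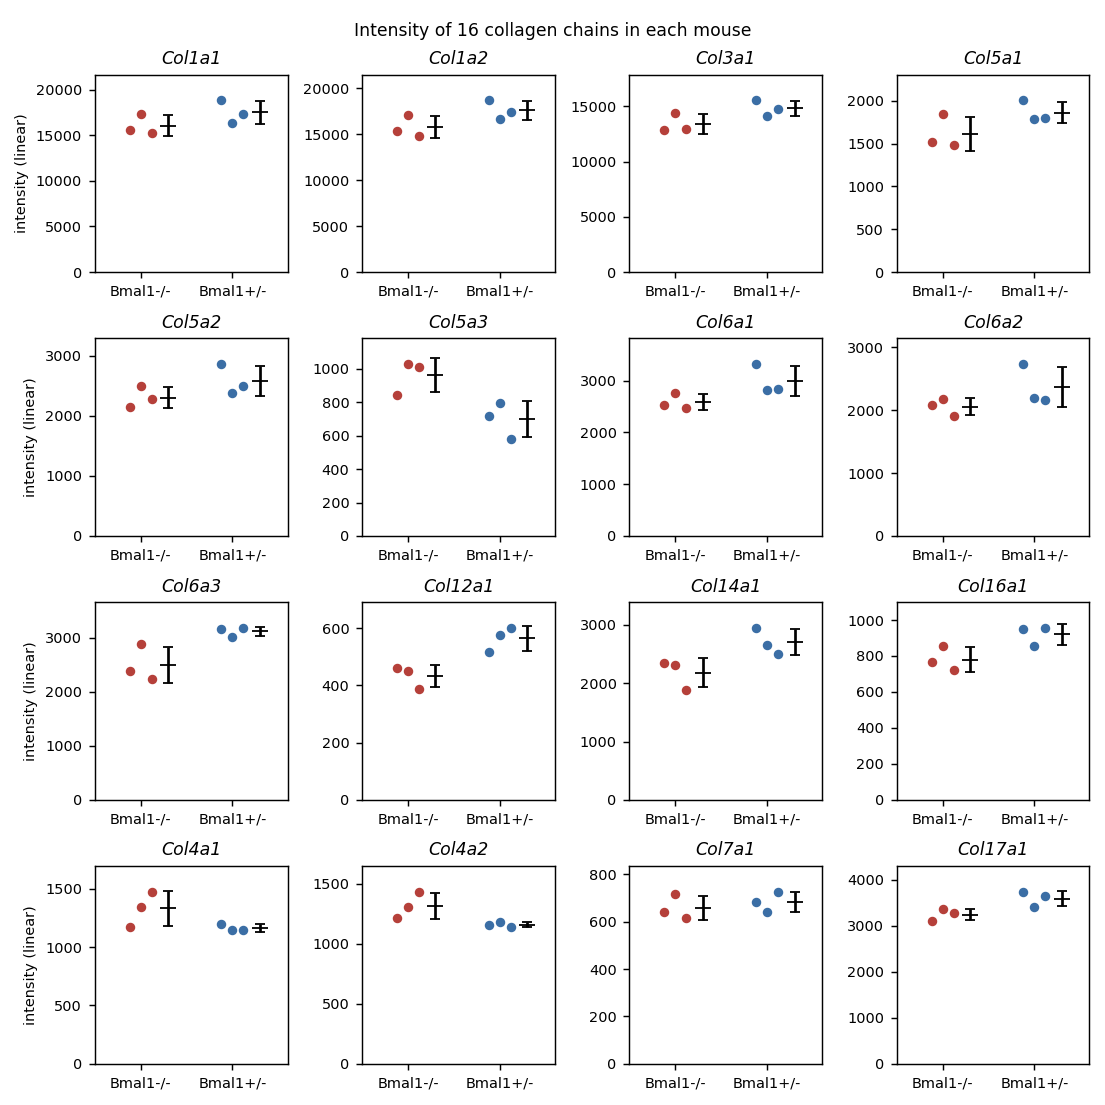
Linear intensity (vertical axes, each starting at 0) of 16 collagen chains in each mouse, with points for the 3 *Bmal1*-/- and 3 *Bmal1*+/- mice and lines for the group mean with its SD. Each panel has its own scale, and the 3 *Bmal1*-/- points of *Col12a1* lie between 388 and 461, below the *Bmal1*+/- points at 517 to 601.

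Fibril-associated chains, some of which sit on the surface of type I fibrils, included the lower chain with the smallest p, *Col12a1*. *Col12a1* had 461, 449 and 388 in *Bmal1*-/- mice, against 517, 577 and 601 in *Bmal1*+/- mice. No value overlapped, and the means were 433 ± 39.1 and 565 ± 42.8 (SD, n = 3 each). The log2 fold change was −0.37 ± 0.09 (SE), with a 95% interval of −0.57 to −0.18 and an adjusted p of 0.204, which amounted to −22.8%. The Cyber-T type test gave an adjusted p of 0.033.

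*Col14a1*, a relative of type XII that also binds fibrils, had 2351, 2309 and 1890.5 in *Bmal1*-/- mice, against 2945, 2649.7 and 2509 in *Bmal1*+/- mice. The groups did not overlap, and the log2 fold change was −0.31 ± 0.09 (SE) at an adjusted p of 0.354. *Col16a1*, a fibril-associated chain also found near basement membranes, averaged 780.1 ± 67.4 in *Bmal1*-/- skin and 920.1 ± 57.1 in *Bmal1*+/- skin (SD, n = 3 each), with a log2 fold change of −0.24 (adjusted p = 0.421). Its highest *Bmal1*-/- value and lowest *Bmal1*+/- value were nearly equal, at 853.6 and 854.3. The other 6 fibril-associated chains had log2 fold changes between −0.07 for *Col9a2* and 0.14 for *Col20a1*. The median of the 9 measured chains was −0.06. The listed symbol *Col21a1* had no probe set here, while 0 collagen symbols of the RefSeq reference lacked one.

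Beaded filament chains differed among themselves. *Col6a1*, *Col6a2* and *Col6a3* assemble into the usual type VI molecule, in which *Col6a3* is the longest chain. *Col6a3* had 2383, 2877 and 2243 in *Bmal1*-/- mice, against 3159.7, 3017 and 3181 in *Bmal1*+/- mice. All 3 *Bmal1*-/- values were lower, with replicate 2 the closest to the *Bmal1*+/- mice. The log2 fold change was −0.32 ± 0.09 (SE), with a 95% interval of −0.52 to −0.13 and an adjusted p of 0.275. Without *Bmal1*-/- replicate 2 it was −0.43 and past the threshold (adjusted p = 0.045) in a fit that called 0.145% of all probe sets lower, and the Cyber-T type test over all arrays gave an adjusted p of 0.049. Leaving out any other array left it short of the threshold.

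*Col6a1* had 2532, 2760.4 and 2476 in *Bmal1*-/- mice and 3319, 2817 and 2839 in *Bmal1*+/- mice, without overlap and with a log2 fold change of −0.20 (adjusted p = 0.476). *Col6a2* averaged 2055 ± 135 in *Bmal1*-/- skin and 2364 ± 317 in *Bmal1*+/- skin (SD, n = 3 each), with a log2 fold change of −0.19 (adjusted p = 0.595), and its highest value by far was that of *Bmal1*+/- replicate 1. The genes of the chains *Col6a1* and *Col6a2* neighbour each other on chromosome 10, and their log2 fold changes differed by little, as did those of the neighbours *Col3a1* and *Col5a2* on chromosome 1 at −0.15 and −0.16.

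The neighbouring genes *Col6a4*, *Col6a5* and *Col6a6* on chromosome 9 encode chains that can stand in for *Col6a3*. *Col6a4* averaged 603 ± 62.4 in *Bmal1*-/- skin and 520.2 ± 55.3 in *Bmal1*+/- skin (SD, n = 3 each), with a log2 fold change of 0.21 (adjusted p = 0.589). Both probe sets of *Col6a6* had higher means in *Bmal1*-/- skin, with log2 fold changes of 0.12 (adjusted p = 0.65) and 0.24 (adjusted p = 0.557). The 2 probe sets of *Col6a5* had log2 fold changes of −0.11 (adjusted p = 0.865) and −0.30 (adjusted p = 0.43), the second from a dim probe set with 88.7, 98.5 and 91.0 in *Bmal1*-/- mice and 127, 106 and 122 in *Bmal1*+/- mice. These 3 neighbours therefore had estimates of both signs, none past the threshold.

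The type IV chains of basement membranes comprise a common pair and chains of more restricted occurrence. *Col4a1* and *Col4a2*, which form the type IV molecule of nearly every basement membrane, had higher means in *Bmal1*-/- skin. *Col4a1* had 1177, 1347 and 1474 in *Bmal1*-/- mice, against 1200.1, 1145 and 1147 in *Bmal1*+/- mice. *Bmal1*-/- replicates 2 and 3 lay above every *Bmal1*+/- mouse and replicate 1 did not, with a log2 fold change of 0.19 ± 0.08 (SE) at an adjusted p of 0.559. *Col4a2* had 1216, 1305 and 1433 in *Bmal1*-/- mice, against 1159, 1182 and 1144 in *Bmal1*+/- mice. Its groups did not overlap, *Bmal1*-/- replicate 3 was again highest, and the log2 fold change was 0.18 ± 0.07 (SE) at an adjusted p of 0.497. Without *Bmal1*-/- replicate 3 the log2 fold changes were 0.11 for *Col4a1* (adjusted p = 0.835) and 0.12 for *Col4a2* (adjusted p = 0.798).

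The genes *Col4a1* and *Col4a2* lie head to head on chromosome 8, on opposite strands, with annotated starts 21 bases apart. Within each array, their mean less the mean of *Col1a1* and *Col1a2* on the log2 scale, as a deviation from its mean over the 6 arrays, was 0.06, 0.05 and 0.37 in *Bmal1*-/- mice, against −0.24, −0.08 and −0.17 in *Bmal1*+/- mice. The groups did not overlap in this difference, which was also chosen after the values had been seen and was not tested. The other type IV chains, *Col4a3* to *Col4a6*, had log2 fold changes between −0.11 and −0.02 (adjusted p of 0.713 to 0.952).

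Vessel markers had higher means in *Bmal1*-/- skin as well. Of the 8 endothelial markers, 7 had a higher mean in *Bmal1*-/- skin, with a median log2 fold change of 0.13, and their summed intensity was 5129, 4776 and 6180.1 in *Bmal1*-/- mice, against 4578, 4984 and 4898 in *Bmal1*+/- mice. *Bmal1*-/- replicate 3 was highest in this sum as it was for *Col4a1* and *Col4a2*. The groups overlapped in the sum, since *Bmal1*-/- replicate 2 lay below *Bmal1*+/- replicates 2 and 3, which it did not for *Col4a1* and *Col4a2*. The endothelial growth regulator *Egfl7* had the smallest p of the list, with 565, 522 and 628 in *Bmal1*-/- mice and 404, 451 and 490.3 in *Bmal1*+/- mice, a log2 fold change of 0.34 (adjusted p = 0.292). Higher means were not particular to vessel markers. Of 7 measured adipocyte markers 1 had a lower mean, the median log2 fold change was 0.09, and *Bmal1*-/- replicate 3 had the highest sum at 19814. *Pparg* had the smallest p of that list, with 1454, 1379 and 1437 in *Bmal1*-/- mice and 1147, 1270 and 1155 in *Bmal1*+/- mice. Its log2 fold change was 0.26 (adjusted p = 0.221). The lower marker was *Lep* at −0.87 (adjusted p = 0.693), with 86.3 in *Bmal1*-/- replicate 1 and 467 to 689 in the other mice. The part of vessels or fat cells in the type IV values was not tested.

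Network chains outside type IV were dim, as were *Col4a3* to *Col4a6*. *Col8a1*, a short network chain of vessel walls and the cornea, had 155, 183 and 179 in *Bmal1*-/- mice, against 189, 232 and 270.0 in *Bmal1*+/- mice. The groups did not overlap but lay close, the log2 fold change was −0.38 ± 0.13 (SE) at an adjusted p of 0.421, and the interval ran between −0.66 and −0.09. Its partner *Col8a2* averaged 208 ± 20.5 in *Bmal1*-/- skin and 248 ± 65.8 in *Bmal1*+/- skin (SD, n = 3 each), with a log2 fold change of −0.21 (adjusted p = 0.733) and *Bmal1*+/- replicate 3 stood highest at 324. *Col10a1*, a chain of growth plate cartilage, had a log2 fold change of 0.07.

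At the junction of epidermis and dermis, *Col7a1* averaged 658 ± 51.5 in *Bmal1*-/- skin and 684 ± 41.7 in *Bmal1*+/- skin (SD, n = 3 each). Its log2 fold change was −0.06, with a 95% interval of −0.23 to 0.12 (adjusted p = 0.87). The hemidesmosome chain *Col17a1*, made by basal keratinocytes, had 3104, 3352 and 3265 in *Bmal1*-/- mice, against 3731, 3399 and 3634 in *Bmal1*+/- mice. The groups did not overlap, the gap between the closest mice was small, and the log2 fold change was −0.15 ± 0.06 (SE) at an adjusted p of 0.507. The other transmembrane chains, *Col13a1*, *Col23a1* and *Col25a1*, lay between −0.01 and 0.05. The multiplexins *Col15a1* and *Col18a1*, which carry heparan or chondroitin sulfate at basement membranes, had log2 fold changes of −0.15 (adjusted p = 0.671) and −0.13 (adjusted p = 0.669), and both groups overlapped in each.

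Across arrays, single mice stood apart within each genotype. The median log2 deviation of the 44 chains, each from its mean over the 6 arrays, was −0.13, 0.06 and −0.05 in *Bmal1*-/- mice, against 0.02, −0.04 and 0.11 in *Bmal1*+/- mice. *Bmal1*-/- replicate 2 lay above 2 of the 3 *Bmal1*+/- mice in this median, so the groups overlapped. The 19894 other genes had medians between −0.02 and 0.03 on the same arrays. Among the 14 chains of mean intensity 1000 or more, the medians were −0.13, 0.04 and −0.15 in *Bmal1*-/- mice, against 0.18, −0.002 and 0.05 in *Bmal1*+/- mice. These chains include *Col1a1*, *Col1a2*, *Col3a1*, *Col5a1*, *Col5a2* and *Col6a1* to *Col6a3*. The chains *Col5a3*, *Col6a4* and *Col6a6*, which had higher means in *Bmal1*-/- skin, and *Col6a5*, which had a lower one, were dimmer and not among them. Of the 14 bright chains, 12 had a lower mean in *Bmal1*-/- skin, with a median log2 fold change of −0.15, where 3038 other genes of that intensity had −0.01. Among those 3038 genes, 1678 had a lower mean. Among the 30 dimmer chains *Bmal1*+/- replicate 3 was highest at 0.17, and the median log2 fold change was −0.04.

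The family median rested on single arrays. It was −0.03 without *Bmal1*-/- replicate 1, −0.16 without *Bmal1*-/- replicate 2, −0.14 without *Bmal1*+/- replicate 2 and −0.015 without *Bmal1*+/- replicate 3. Without *Bmal1*-/- replicate 1, 25 of the 44 chains had a lower mean in *Bmal1*-/- skin, and without *Bmal1*+/- replicate 3 there were 24. Without *Bmal1*+/- replicate 1, the mouse labelled male, 33 chains had a lower mean, but several dermal chains were nearer to 0. The log2 fold change without that mouse was −0.07 for *Col1a1*, −0.08 for *Col5a2*, −0.13 for *Col6a1* and −0.09 for *Col6a2*.

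**Figure D3:**
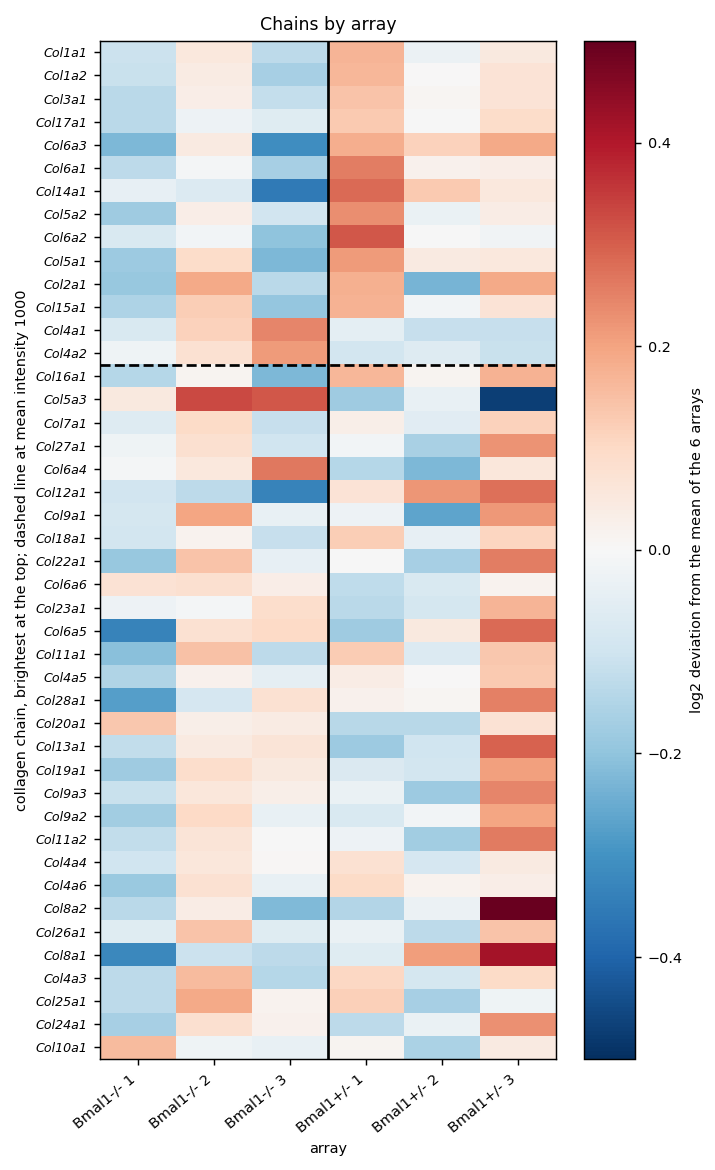
Log2 deviation of each of the 44 chains (rows, brightest at the top) from its mean over the 6 arrays (columns, 3 *Bmal1*-/- and then 3 *Bmal1*+/- mice), as colour. The median of the bright chains, above the dashed line at a mean intensity of 1000, is lowest in *Bmal1*-/- replicates 1 and 3 and highest in *Bmal1*+/- replicate 1. Single bright chains differ, with *Col4a1* and *Col4a2* highest in *Bmal1*-/- replicate 3. The median of the dim chains is highest in *Bmal1*+/- replicate 3.

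Most genes that help to build collagen had lower means too, and none passed the test. Of 20 measured genes for procollagen folding and modification, 18 had a lower mean in *Bmal1*-/- skin, 8 were lower and 0 higher at an unadjusted p under 0.05, and the median log2 fold change was −0.16. Over all genes 44.5% had a lower mean, and 4.51% were lower and 4.35% higher at that threshold. The summed intensity of the 20 genes was 30266.5, 30724 and 28422 in *Bmal1*-/- mice, against 36111, 32200 and 32143 in *Bmal1*+/- mice. The highest sum was that of *Bmal1*+/- replicate 1, the mouse labelled male. *Plod1*, a lysyl hydroxylase, had 753, 746 and 801 in *Bmal1*-/- mice, against 1084, 897 and 890.0 in *Bmal1*+/- mice. The groups did not overlap, and the log2 fold change was −0.31 ± 0.08 (SE) at an adjusted p of 0.283. *Plod2*, whose hydroxylysines form cross-links, averaged 169 ± 1.27 in *Bmal1*-/- skin and 216 ± 31.4 in *Bmal1*+/- skin (SD, n = 3 each), with a log2 fold change of −0.32 (adjusted p = 0.407). *Sparc*, which binds procollagen and aids its deposition, averaged 11470.5 ± 301 in *Bmal1*-/- skin and 12971 ± 504 in *Bmal1*+/- skin (SD, n = 3 each), with a log2 fold change of −0.18 (adjusted p = 0.371). *Serpinh1*, the collagen chaperone HSP47, named after its values had been seen, had 2078, 1863 and 1497 in *Bmal1*-/- mice and 2743, 2230.4 and 2056 in *Bmal1*+/- mice, with overlap (adjusted p = 0.449).

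Of 12 genes for cleavage and cross-linking, 9 had a lower mean in *Bmal1*-/- skin, 2 at an unadjusted p under 0.05 (4.51% of all genes) and none past the test. *Bmp1*, the protease that removes the C-terminal propeptide, averaged 1351 ± 40.1 in *Bmal1*-/- skin and 1524 ± 108 in *Bmal1*+/- skin (SD, n = 3 each), with a log2 fold change of −0.17 (adjusted p = 0.488). Its enhancers *Pcolce2* and *Pcolce* had log2 fold changes of −0.20 (adjusted p = 0.486) and −0.26 (adjusted p = 0.626). Of 17 fibril-binding proteins, 14 had a lower mean, 6 at an unadjusted p under 0.05 (4.51% of all genes), with a median of −0.13. Dermatopontin (*Dpt*), which binds decorin and promotes fibril formation, had 3505, 3504 and 3603 in *Bmal1*-/- mice, against 4603, 4443 and 4062 in *Bmal1*+/- mice. The *Bmal1*-/- mice lay close together below all *Bmal1*+/- mice, and the log2 fold change was −0.30 ± 0.06 (SE; adjusted p = 0.122, and 0.023 by the Cyber-T type test). Fibronectin (*Fn1*) and biglycan (*Bgn*) had log2 fold changes of −0.21 (adjusted p = 0.398) and −0.23 (adjusted p = 0.403).

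The largest differences among the collagen partners were in the Fraser complex, which joins the epidermal basement membrane to the dermis. *Frem1* had 318, 398 and 382 in *Bmal1*-/- mice, against 601, 478 and 534 in *Bmal1*+/- mice. *Frem2* had 519, 508 and 465 in *Bmal1*-/- mice, against 827, 648 and 639 in *Bmal1*+/- mice. Neither gene overlapped between the groups, and the log2 fold changes were −0.54 ± 0.11 for *Frem1* (SE; adjusted p = 0.123) and −0.48 ± 0.10 for *Frem2* (SE; adjusted p = 0.145). The Cyber-T type test put both past the threshold, at adjusted p-values of 0.00379 and 0.00609. *Fras1*, their partner, had a log2 fold change of −0.40 (adjusted p = 0.336). *Bmal1*+/- replicate 1, the mouse labelled male, was highest in each of these genes, with 297 for *Fras1* against 221 and 221 in the other *Bmal1*+/- mice. Over the 18 measured laminins and other basement membrane proteins the median was −0.04, with 5 lower and 2 higher at an unadjusted p under 0.05, where 4.51% of all genes were lower and 4.35% higher.

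Receptors and breakdown genes held no call either. Of 9 collagen receptors, 1 was lower at an unadjusted p under 0.05 (4.51% of all genes). This was *Mrc2*, an uptake receptor for collagen fragments, which averaged 636 ± 41.6 in *Bmal1*-/- skin and 762 ± 8.72 in *Bmal1*+/- skin (SD, n = 3 each; log2 fold change −0.26, adjusted p = 0.26). The integrin chain *Itgb1* and the receptor kinase *Ddr2* had log2 fold changes of −0.10 and −0.13. Of 11 genes for collagen breakdown and its inhibitors, 2 were higher and 1 lower at an unadjusted p under 0.05, where 4.35% of all genes were higher and 4.51% lower. The higher ones were the gelatinase *Mmp9* (0.35, adjusted p = 0.391) and the inhibitor *Timp4* (0.40, adjusted p = 0.484), and the lower one the inhibitor *Timp3* (−0.23, adjusted p = 0.485). *Timp4* had 420, 381 and 606 in *Bmal1*-/- mice, against 311, 379 and 343 in *Bmal1*+/- mice, so *Bmal1*-/- replicate 3 stood far above the rest.

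**Figure D4:**
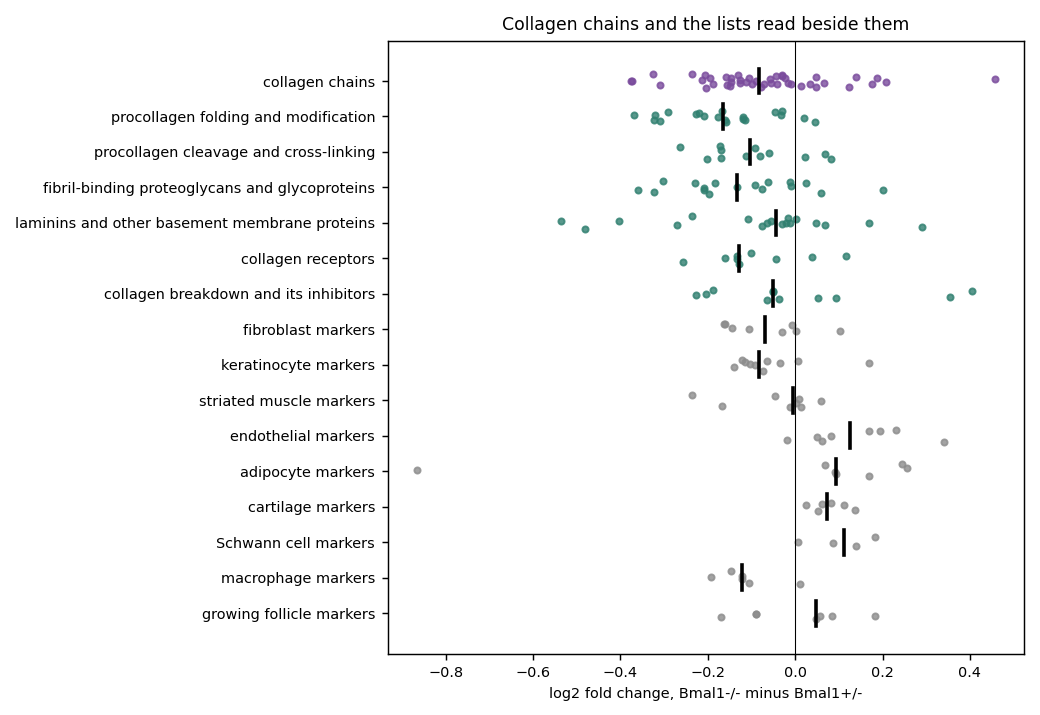
Log2 fold change (*Bmal1*-/- minus *Bmal1*+/-, horizontal axis) of each gene of the collagen chains and of the companion lists (rows), with each gene as a point and the list median as a bar. Folding genes have a median of −0.16 and endothelial markers one of 0.13, and no gene in these lists passed the test at an adjusted p under 0.05.

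Markers of the cells in skin were measured beside these values. The dimmest of the 10 keratinocyte markers, *Itgb4*, had a mean intensity of 1100.3, and the dimmest of the 8 fibroblast markers, *S100a4*, one of 453. The summed intensity of the 8 fibroblast markers was 14511, 14638 and 14118 in *Bmal1*-/- mice, against 16069.8, 15016 and 15255 in *Bmal1*+/- mice, with no overlap. Without *Vim*, the brightest, the sum over 7 markers was 7813, 8124 and 7977 in *Bmal1*-/- mice, against 8611, 8017 and 8033 in *Bmal1*+/- mice, and the groups overlapped. Of the 8 markers, 6 had a lower mean in *Bmal1*-/- skin, the median log2 fold change was −0.07, and the intermediate filament gene *Vim*, which other mesenchymal cells express too, had the smallest p (log2 fold change −0.16, adjusted p = 0.433). In these whole-skin samples, fewer cells of a type and less RNA per cell cannot be told apart, and the part of fibroblast number in the collagen values was not tested. The sums of keratinocyte markers were 58832, 60771 and 54380.4 in *Bmal1*-/- mice and 59277, 57786 and 63383 in *Bmal1*+/- mice, with overlap. Of these 10 markers 8 had a lower mean, and *Lor*, which was higher, had the smallest p (log2 fold change 0.17, adjusted p = 0.45). Sums of growing follicle markers were 866, 1063 and 1224 in *Bmal1*-/- mice and 954, 859 and 1395 in *Bmal1*+/- mice, and overlapped as well. Medians were −0.004 for striated muscle, 0.09 for adipocyte, 0.07 for cartilage, 0.11 for Schwann cell and −0.12 for macrophage markers. The 6 cartilage markers were dim, with mean intensities between 51.5 for *Hapln1* and 92.6 for *Comp*, and only 4 Schwann cell markers were measured.

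The arrays were alike in scale, with median intensities of 219 to 236 over all rows and correlations between arrays of 0.989 to 0.995. The probe set of *Bmal1* (*Arntl*) had 569, 609.8 and 664 in *Bmal1*-/- mice, against 325, 365 and 355 in *Bmal1*+/- mice, a log2 fold change of 0.79 (adjusted p = 0.0037). It was higher in the mutant, and the position of its probes against the deletion is not stated, so this value alone does not check the genotype labels. The clock output genes *Nr1d1* and *Dbp*, which BMAL1 activates, were read for this check after their values had been seen. *Nr1d1* had 204, 145 and 237 in *Bmal1*-/- mice, against 1893, 1879.7 and 1561 in *Bmal1*+/- mice (log2 fold change −3.11, adjusted p = 2.0e-05). *Dbp* had 209.9, 221 and 221 in *Bmal1*-/- mice, against 1378, 1536 and 1148 in *Bmal1*+/- mice (log2 fold change −2.55, adjusted p = 6.2e-06). Both fell in every mouse labelled *Bmal1*-/-, and neither overlapped between the groups.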

How the data were processed

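Dorsal skin RNA of 3 *Bmal1*-/- and 3 *Bmal1*+/- mice was profiled, 1 array each. The authors deposited linear intensity values per probe set, and the submitters' processing notes name PLIER 2.0 and Affymetrix Expression Console 1.1. The sources used here do not state the background correction, normalization or genome build. Intensities were taken as log2(intensity + 16), and the 23410 of 35557 probe sets with a gene symbol in the platform annotation (1621 of them with several, which name no gene here) were fitted with limma 3.58.1 in R 4.3.3 (lmFit, eBayes with an intensity trend; two-sided, Benjamini-Hochberg), which was also tested on simulated arrays. Tables and figures were made with Python 3.11.15, pandas 2.3.3 and matplotlib 3.10.9. The number of arrays limits the precision.

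Collagen genes named were those called, the 8 highest and 8 lowest log2 fold changes and the chains of skin dermis and basement membrane. In the companion lists other than cell type markers, the called genes, or up to 3 genes of smallest p, were named. The cell type marker lists are given mainly as sums and medians, with only some of these genes named. Members, lists and rules were chosen with earlier results of these data known. Alternatives changed the offset, normalization, filter, rows, variance model, test (a Cyber-T type test with a window of 101 and prior weight of 10), pairing and threshold, or left out 1 array. Labels give separate biological replicates and no batch.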

Additional observations from a re-analysis of the deposited data

How the results depend on the processing

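Across 15 alternative fits, 3 of the 25 named chains passed the threshold in some fit, and *Col25a1* (0.05 over all arrays) changed sign, with −0.033 without *Bmal1*-/- replicate 2 and −0.023 without *Bmal1*+/- replicate 2 (leave-one-out range −0.033 to 0.126). The Cyber-T type test called 177 probe sets lower and 96 higher in *Bmal1*-/- skin, among them 2 chains lower (*Col12a1*, *Col6a3*), 1 chain higher (*Col5a3*) and 3 companion genes lower (*Dpt*, *Frem1*, *Frem2*). All rows of the table gave 19 and 12 calls, no intensity trend 16 and 11, and an unadjusted p under 0.001 in limma gave 93 and 59 with 3 companion genes lower and 0 chains. Leaving out 1 array gave 22 to 34 calls lower and 13 to 23 higher, 0 to 1 chains lower (*Col6a3* without *Bmal1*-/- replicate 2), 0 chains higher, 0 companion genes and a median chain log2 fold change of −0.16 to −0.015. The other settings kept that median between −0.09 and −0.07. *Acta1* changed sign to 0.00538 with quantile normalization and to 0.0127 without *Bmal1*+/- replicate 2 (leave-one-out range −0.100 to 0.0127), and *Matn1* to −0.00582 without *Bmal1*+/- replicate 1 (leave-one-out range −0.00582 to 0.204). Same-numbered mice did not deviate together (correlations of 0.08, −0.35 and 0.06), and mice of different numbers gave −0.26 to 0.26. With 3 mice a group these correlations cannot tell whether the numbers mark littermate pairs, so pairing is not known. A replicate block called 34 probe sets lower and 20 higher, 0 of them chains, with a median of −0.08. With 3 mice a group and a median standard error of 0.09, differences of the size seen in most chains were not detectable after adjustment. The causes of these changes were not tested.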
